A study of Mus musculus with 50 samples.

Results

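The hearts described here are those of Tgαq*44 mice, a transgenic line on the FVB background that slowly develops heart failure (HF), at 10 months of age against 8 months of age. The 2 groups were taken from the titles of the deposited libraries and hold 5 mice each, so that 10 of the 50 libraries of the series enter the comparison. All mice were female, all 10 carried the transgene, and RNA came from the apex of the left ventricle. The labels give the genotype as overexpression of the Gαq protein. The study describes a constitutively active Gαq in cardiomyocytes, and its methods place both ages, 8 and 10 months, in the transition between early and end-stage HF. FVB mice of 10 and 8 months, 5 of each, carried no transgene and are given beside the transgenic mice as the same step of ageing. Of the 54532 genes in the counts matrix, 15129 were tested, namely those that exceeded 0.5 CPM (counts scaled to the size of the library) in more than 3 mice of some group.

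Gαq couples receptors for noradrenaline, angiotensin and endothelin to phospholipase C, calcium release and protein kinase C, and sustained Gαq activity makes cardiomyocytes grow and then fail. A failing mouse ventricle typically shifts from the fast α-myosin heavy chain towards foetal contractile genes, lowers the genes with which it burns fatty acids, and lays down matrix made by activated fibroblasts. In the line as first described, the transgene is driven by the promoter of Myh6, the gene of the α-myosin heavy chain. Counts per gene add up RNA of the transgene and of endogenous Gnaq.

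Total counts were 11894392 to 15715833 per library in the 10-month-old mice and 10558182 to 18945524 in the 8-month-old mice. Markers of ventricular cardiomyocytes summed to 62327 to 74122 CPM in the 10-month-old mice and 70116 to 80707 CPM in the 8-month-old mice, so that the defining genes of the labelled tissue were abundant in all 10 libraries. A total of 2 libraries stood apart. In 8-month-old mouse 4, genes of skeletal muscle summed to 276 CPM, against 28.8 to 45.2 CPM in the other 8-month-old mice, those of B cells to 522 CPM, against 16.9 to 30.9 CPM, and those of plasma cells to 374 CPM, against 17.5 to 25.1 CPM. In 10-month-old mouse 3, mitochondrially encoded genes held 23.6% of the counts, against 15.1 to 17.3% in the other 10-month-old mice. The first principal component of the 10 libraries, with 25.0% of the variance, separated the ages without overlap. In bulk tissue, fewer cells of a type and less RNA per cell cannot be told apart, and the labels do not give the sequencing run of a library, so that age and run cannot be told apart either.

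In 10-month-old against 8-month-old Tgαq*44 hearts, 898 genes (5.94% of those tested) passed an adjusted p of 0.05 in edgeR's quasi-likelihood test, 388 of them higher (2.56%) and 510 lower (3.37%). Differentially expressed genes (DEGs), which also changed by more than 1 on the log2 scale, numbered 183, with 84 higher (0.555%) and 99 lower (0.654%). The values of the 5 mice of each age did not overlap at all for 559 genes that were higher (3.69%) and 652 that were lower (4.31%). The median log2 fold change over all genes was 0.00. The count of 898 fell to 578 without 8-month-old mouse 2 and to 593 without 8-month-old mouse 3. Without 8-month-old mouse 4 the DEGs were 98 higher and 65 lower (163, of which 129 were DEGs with it). Higher DEGs were also the majority without 10-month-old mouse 5 (87 higher and 80 lower), and limma-voom gave 78 in each direction. The majority of lower genes among the 898 turned without 10-month-old mouse 1 (364 higher and 333 lower) or mouse 4 (348 and 344) and with only the 10 Tgαq*44 libraries in the fit (720 and 701).

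**Figure D1:**
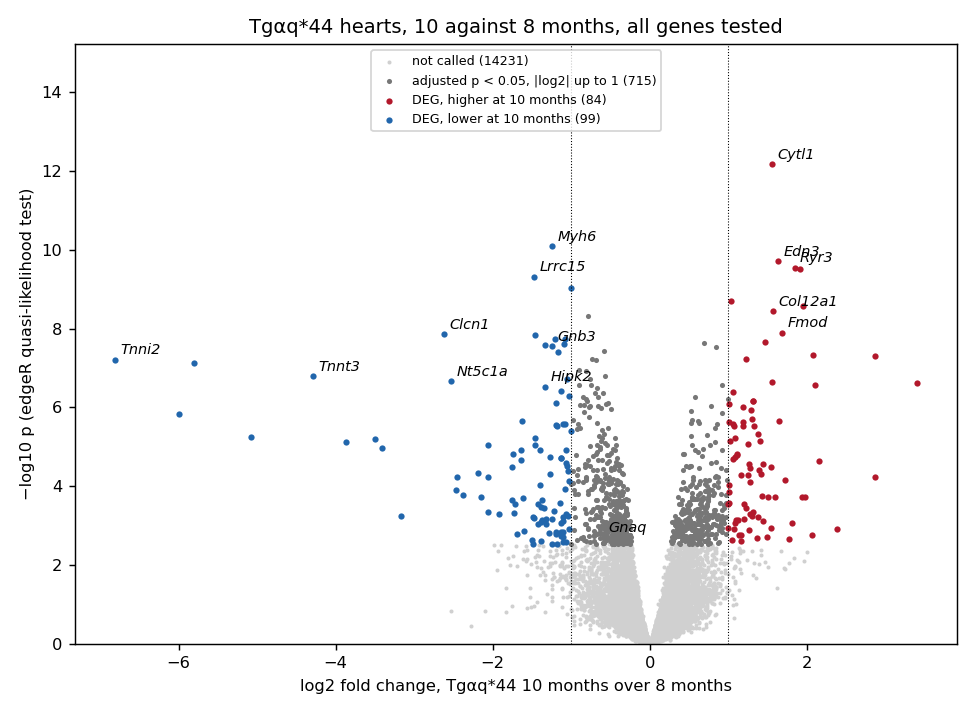
Each point is 1 of the 15129 genes, with the log2 fold change of 10 over 8 months in Tgαq*44 hearts on the x axis and −log10 of the unadjusted p of edgeR's test on the y axis. Cytl1 has the lowest p and lies on the right with 84 DEGs (red), Myh6 leads the 99 DEGs on the left (blue), and Tnni2 and Tnnt3 at the far left are skeletal muscle genes that were high in 1 of the 8-month-old mice.

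Gnaq, the gene of the protein that the transgene overexpresses, was measured first. It stood at 16.9, 21.1, 25.6, 30.0 and 30.5 CPM in 10-month-old Tgαq*44 mice 1 to 5, against 35.5, 45.6, 34.2, 40.5 and 32.0 CPM in 8-month-old Tgαq*44 mice 1 to 5. No 10-month-old mouse reached the lowest 8-month-old one, and the log2 fold change was −0.59 (SE 0.18, adjusted p = 0.038). This call was kept in 12 of 20 alternative fits. It was lost on leaving out 10-month-old mouse 1, 2 or 3 (adjusted p of 0.14, 0.11 and 0.060 for Gnaq) or 8-month-old mouse 1, 2, 3 or 4 (0.058, 0.14, 0.060 and 0.089). Gnaq in FVB hearts averaged 15.6 ± 3.78 CPM in the 10-month-old mice and 19.1 ± 3.88 CPM in the 8-month-old mice (SD, n = 5 each), with a log2 fold change of −0.29 (adjusted p = 0.48).

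Of 39 genes of Gq and calcineurin signalling, 4 fell and 1 rose, against 3.37% and 2.56% of all genes, and the list median was −0.04. Only 2 of the 39 fell without 8-month-old mouse 4, and 2 without 10-month-old mouse 3. Adra1a, the α1A-adrenergic receptor that signals through Gαq, was at 1.84, 2.38, 3.06, 2.55 and 2.42 CPM in the 10-month-old mice, against 7.56, 5.66, 6.38, 3.89 and 5.05 CPM in the 8-month-old mice. Its log2 fold change was −1.20 (SE 0.23, adjusted p = 0.00044). Adra1b, the second α1-receptor of mouse cardiomyocytes, fell with it (−0.79, SE 0.17, adjusted p = 0.0024), and neither receptor overlapped between the ages. In FVB mice the log2 fold changes were −0.11 for Adra1a and 0.13 for Adra1b (adjusted p of 0.84 and 0.79), and the difference between the strains did not pass for either (adjusted p of 0.099 and 0.094). Agtr1a, the angiotensin receptor, fell too (−0.59, SE 0.17, adjusted p = 0.027), although 10-month-old mouse 3 at 42.5 CPM lay above all 8-month-old mice and the call was lost without 10-month-old mouse 1, 2, 4 or 5 or 8-month-old mouse 1, 2 or 3 (adjusted p for Agtr1a of 0.054 to 0.14). It was the only called gene of 18 tested in the renin-angiotensin-aldosterone list. Beyond the receptors, the adenylyl cyclases Adcy6 (−0.75, SE 0.13) and Adcy9 (−0.92, SE 0.18), which make cAMP downstream of β-receptors, both fell (adjusted p of 9.5e-05 and 0.00052). Adcy9 was called lower in FVB hearts too (−0.61), whereas Adcy6 was not called there (0.01).

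The most abundant gene among those with the largest decreases was Myh6, the gene of the fast α-myosin heavy chain of the adult mouse ventricle. It lies on the minus strand at chr14:54941921-54966927 (GRCm38). Its level was 3595, 4575, 2496, 4476 and 5041 CPM in the 10-month-old mice, against 9307, 9731, 9962, 8055 and 10518 CPM in the 8-month-old mice. The highest 10-month-old mouse was well under the lowest 8-month-old one, and the level was 2.36-fold lower (log2 fold change −1.24, SE 0.15, adjusted p = 6.2e-07). In FVB hearts Myh6 averaged 11926 ± 2242 CPM in 10-month-old and 16409 ± 1449 CPM in 8-month-old mice (SD, n = 5 each), a log2 fold change of −0.46 (adjusted p = 0.057), and the difference between the strains was −0.78 (SE 0.21, adjusted p = 0.099). The gene next to it, Myh7, which encodes the slow β-chain, had 1270, 1021, 799, 1107 and 1153 CPM at 10 months, against 792, 1339, 1632, 1209 and 1072 CPM at 8 months. The values of Myh7 overlapped (−0.18, SE 0.18, adjusted p = 0.62).

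The promoter of Myh6 is shown because it belongs to an abundant transcript that fell and is the promoter known to drive the transgene. The window runs from 250 bases before to 50 bases after the start site of RefSeq (GRCm38.p6, chr14:54966558-54966857, minus strand, written 5′ to 3′). It lies within the gene interval given above because that interval is GENCODE's and ends at a transcript that starts further upstream. Capitals mark matches to the TATA box TATAAA, the MCAT box CATTCC that TEAD factors bind and the SMAD box CAGACA, searched on both strands.
Myh6: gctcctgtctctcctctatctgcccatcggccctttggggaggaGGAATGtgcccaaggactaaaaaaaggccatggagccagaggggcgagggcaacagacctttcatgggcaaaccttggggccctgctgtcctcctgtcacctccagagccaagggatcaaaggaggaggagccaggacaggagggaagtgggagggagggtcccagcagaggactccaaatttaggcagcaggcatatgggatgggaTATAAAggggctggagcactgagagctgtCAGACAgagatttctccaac
It holds 1 match of each, none overlapping another. Among 32851 promoters of the same length, 13.6% hold TATAAA, 14.7% CATTCC and 21.0% CAGACA.

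Both cardiac myosin genes of chromosome 14 carry a microRNA. Mir208a lies within Myh6 and Mir208b within Myh7, on the same strand, and the mature products share the seed (bases 2 to 8, in capitals). They are shown because the Mir208b locus was among the 15 largest decreases while its host was not called.
mmu-miR-208a-3p: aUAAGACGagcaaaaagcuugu
mmu-miR-208b-3p: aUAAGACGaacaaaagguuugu
Reads at the Mir208b hairpin (chr14:54975700-54975776) came to 1.38, 0.818, 0.783, 1.31 and 1.78 CPM in the 10-month-old mice, against 3.96, 4.51, 3.08, 2.56 and 4.77 CPM in the 8-month-old mice (log2 fold change −1.62, SE 0.30, adjusted p = 0.0004). At Mir208a they were at 0.00 to 0.409 CPM at 10 months, against 0.359 to 0.900 CPM at 8 months (−1.51, SE 0.56, adjusted p = 0.098). These are reads of polyadenylated transcripts over the hairpins, and the mature microRNAs were not measured. Mhrt, a long noncoding RNA that overlaps Myh7 on the opposite strand, had a log2 fold change of −0.53 (adjusted p = 0.093), which is uncertain because no source used here says whether reads were counted by strand.

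Among 32 genes of the sarcomere and Z disc, 5 fell and none rose, against 3.37% and 2.56% of all genes. Besides Myh6 these were Myh7b (−1.07, SE 0.16), a slow myosin gene with a microRNA of its own, Myom1 (−0.53, SE 0.12), which encodes the M-band protein myomesin, Tcap (−0.68, SE 0.17), which caps titin at the Z disc, and Tnni3 (−0.36, SE 0.09), the cardiac troponin I. The values of these 5 genes did not overlap between the ages. The call of Tcap was lost without 8-month-old mouse 2 (adjusted p for Tcap of 0.050) and that of Tnni3 without 10-month-old mouse 2 or 8-month-old mouse 3 (adjusted p for Tnni3 of up to 0.12). The list median was −0.12. Of the 32 genes, 2 were called lower in FVB hearts, among them Myh7b (−0.79), and 2 higher. Of calcium-handling genes, Cacna1c, the L-type calcium channel, had 245 to 357 CPM in the 10-month-old mice and 404 to 483 CPM in the 8-month-old mice (−0.59, SE 0.10, adjusted p = 0.00013). Atp2a2, the calcium pump of the sarcoplasmic reticulum, fell by less (−0.39, SE 0.08, adjusted p = 0.0025), and the other 22 of the 24 tested did not pass. Cacna1c was called lower in FVB hearts too (−0.39), whereas Atp2a2 was not (−0.14).

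Ryr3, a ryanodine receptor isoform that is minor in the heart and stands outside that list, rose. It was at 6.28, 5.31, 6.27, 6.53 and 6.12 CPM in the 10-month-old mice, against 1.62, 1.86, 1.10, 2.36 and 1.37 CPM in the 8-month-old mice. The log2 fold change was 1.85 (SE 0.23, adjusted p = 9.3e-07), and in FVB mice it was 0.27 (adjusted p = 0.73). Clcn1, the chloride channel of the muscle membrane, went the other way, with 0.230, 0.341, 0.142, 0.341 and 0.142 CPM at 10 months, against 0.990, 1.58, 1.54, 2.10 and 1.37 CPM at 8 months (−2.62, SE 0.38, adjusted p = 1.6e-05). FVB hearts held far more Clcn1 at both ages (9.75 ± 2.23 CPM in 10-month-old and 12.4 ± 0.494 CPM in 8-month-old mice). Of 34 ion channel genes, Kcnj5 (−0.65) and Scn4a (−0.82) also fell, where 3.37% of all genes fell. Scn7a rose (0.81), a call lost without 10-month-old mouse 2 or 4 or 8-month-old mouse 2, 3, 4 or 5 (adjusted p for Scn7a of 0.051 to 0.075).

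Foetal and hypertrophic genes of the ventricle rose in 5 of 13 tested (against 2.56% of all genes), with a list median of 0.66 and none lower. The same list in FVB hearts had 4 of 13 higher, none lower and a median of 0.37. No member had a called difference between the strains. Ankrd1, a stress-responsive protein of the titin filament, was at 3868, 3606, 3482, 3964 and 3930 CPM in the 10-month-old mice, against 2450, 2202, 2409, 2347 and 2158 CPM in the 8-month-old mice (0.70, SE 0.16, adjusted p = 0.0051). Fhl1, which tethers titin to growth signalling, was at 1837, 1230, 1047, 1668 and 1231 CPM, against 510, 790, 644, 947 and 628 CPM at 8 months (0.99, SE 0.17, adjusted p = 0.00017). Neither gene overlapped between the ages. Acta1, the skeletal α-actin of the foetal heart, had 5047 to 8513 CPM in the 10-month-old mice and 2377 to 4210 CPM in the 8-month-old mice (1.14, SE 0.34, adjusted p = 0.036), but lost its call in 7 of 20 alternatives, namely with DESeq2 (adjusted p for Acta1 of 0.052) and without 10-month-old mouse 1 or 3 or 8-month-old mouse 1, 2, 3 or 5 (adjusted p for Acta1 of 0.064 to 0.087). Nppa, atrial natriuretic peptide, did not pass, with 1802, 1501, 1359, 1794 and 2941 CPM at 10 months, against 743, 708, 738, 1730 and 965 CPM at 8 months (0.94, SE 0.35, adjusted p = 0.097).

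**Figure D2:**
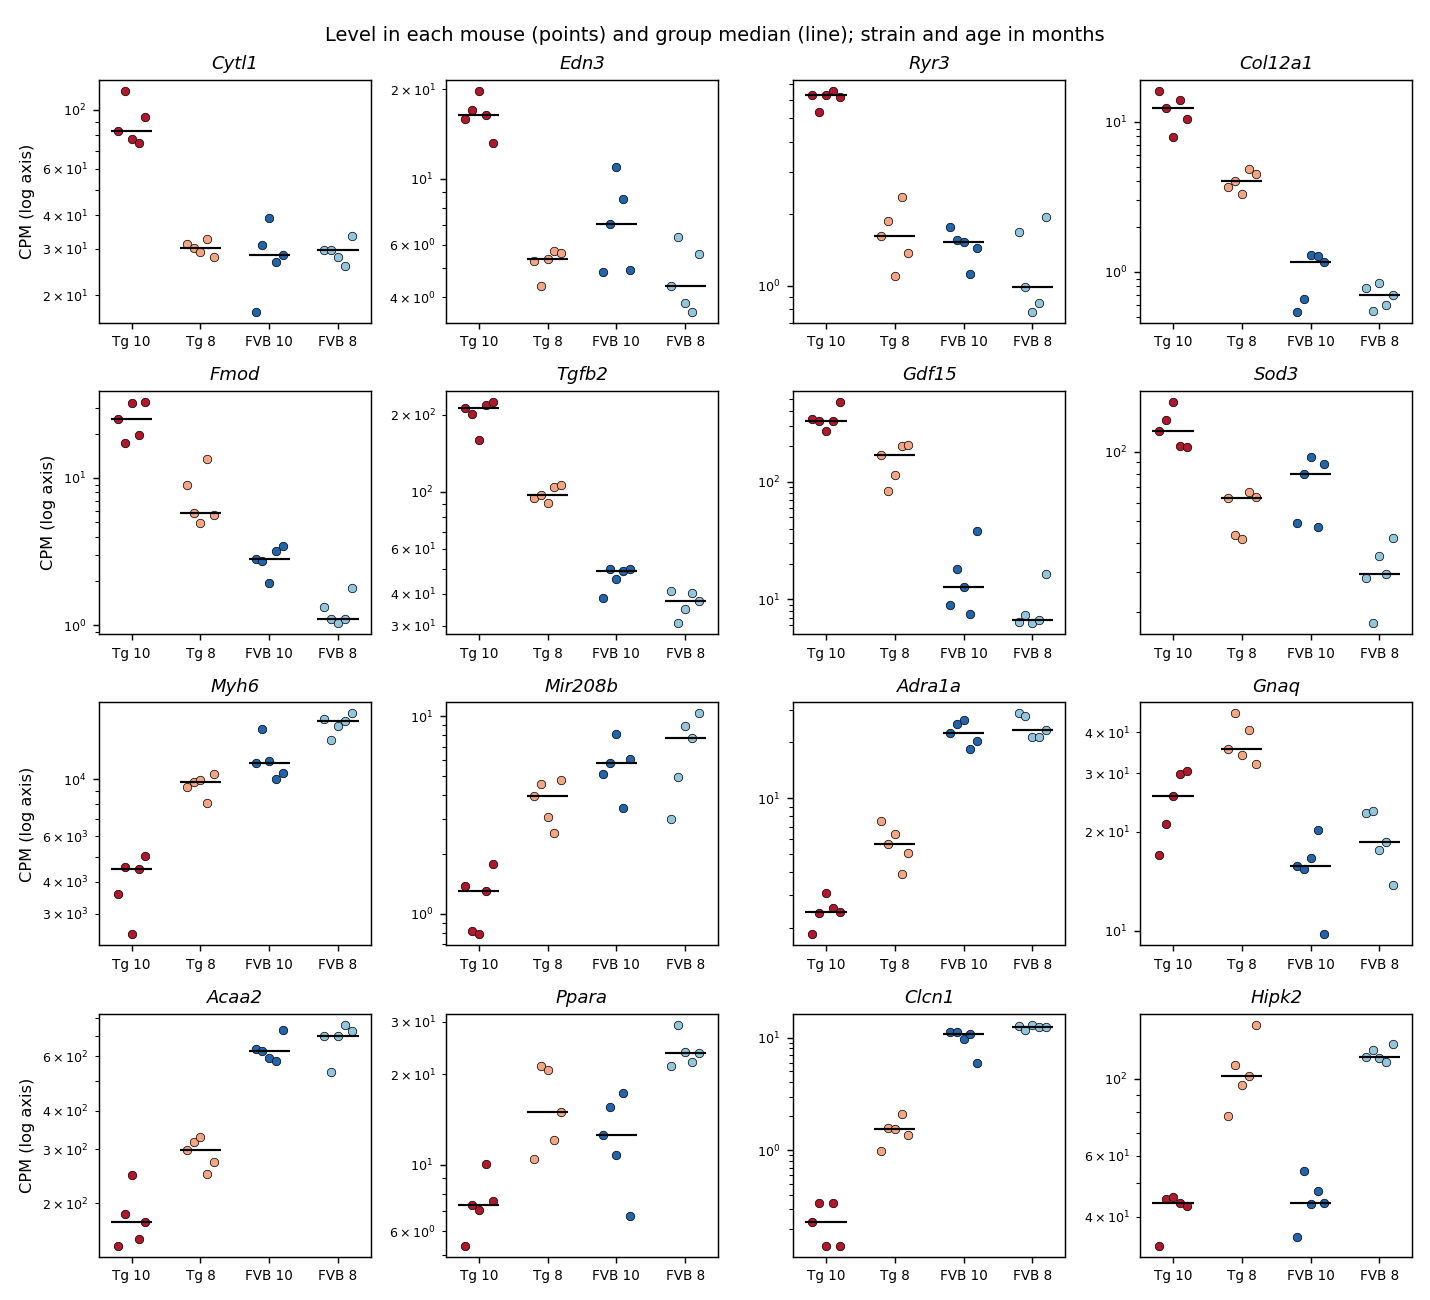
CPM on log axes for 16 genes, with a point per mouse and a line at the group median, in Tgαq*44 mice of 10 and 8 months (red and orange) and FVB mice of 10 and 8 months (dark and light blue). The 10-month-old Tgαq*44 points do not overlap the 8-month-old ones in any panel, but the gap is narrow for Acaa2, Ppara and Gnaq. For several of the genes, no overlap was part of the rule by which they were named. Hipk2, Sod3, Fmod and Ppara were also called in FVB hearts, in the same direction.

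Matrix genes gave the largest number of increases of the 58 lists, which differ in size. As a share of members, other lists stood higher, such as endocardial (4 of 5) and activated fibroblast markers (8 of 14). Of 42 interstitial collagens and matrix genes, 16 rose (against 2.56% of all genes) and none fell, and the list median was 0.50, against 0.00 over all genes. Col12a1, a collagen that decorates fibrils under load, was at 16.1, 12.3, 7.91, 14.0 and 10.4 CPM in the 10-month-old mice, against 3.69, 4.01, 3.30, 4.82 and 4.48 CPM in the 8-month-old mice (1.57, SE 0.22, adjusted p = 5.5e-06). Fmod, a small proteoglycan that steers fibril assembly, was at 25.0, 17.4, 32.1, 19.6 and 32.7 CPM, against 9.00, 5.80, 4.99, 13.4 and 5.63 CPM at 8 months (1.69, SE 0.25, adjusted p = 1.6e-05). Both genes were apart at the 2 ages. Fmod was called higher in FVB hearts too (1.15), whereas Col12a1 was not (0.46). Comp, Thbs4 and Aspn also rose without overlap (1.29, 0.86 and 0.93).

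Other matrix genes rose with 10-month-old mouse 3 at the bottom of its group. Postn, periostin of activated fibroblasts, was at 517, 374, 152, 516 and 314 CPM in the 10-month-old mice, against 216, 214, 178, 207 and 212 CPM in the 8-month-old mice (0.87, SE 0.20, adjusted p = 0.0056). Cilp was at 160, 95.5, 48.9, 148 and 112 CPM, against 55.7, 60.7, 41.3, 71.9 and 58.1 CPM at 8 months (0.97, SE 0.24, adjusted p = 0.008). Mouse 3, the library with the high mitochondrial share, was under all 8-month-old mice for Postn and within their range for Cilp, and the other 10-month-old mice were above that range for both genes. Without it 20 of the 42 rose, and without 8-month-old mouse 4 as well 19 rose. The fibrillar collagens themselves did not pass, with Col1a1 at 441 to 1105 CPM at 10 months and 375 to 494 CPM at 8 months (0.71, SE 0.28, adjusted p = 0.12) and Col3a1 at 0.21 (SE 0.25, adjusted p = 0.68).

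Of 14 markers of activated fibroblasts, 8 rose (against 2.56% of all genes) and all 14 had a positive log2 fold change (median 0.66). Their summed level was 1079 to 1583 CPM at 10 months and 759 to 981 CPM at 8 months, without overlap. Of 12 general fibroblast markers, Dcn (0.54) and Lum (0.36) rose, with the call of Lum lost without 10-month-old mouse 1 or 8-month-old mouse 3, 4 or 5 (adjusted p for Lum of 0.052 to 0.13). Tcf21 and Pdgfra, which mark resident fibroblasts, had log2 fold changes of 0.02 and 0.20 (adjusted p of 0.96 and 0.53). In FVB hearts the activated fibroblast list had a median of 0.04, with 1 of 14 higher, namely Itga11 (0.72). The study itself names Itga11, the collagen-binding integrin of fibroblasts, and it rose (0.68, SE 0.19, adjusted p = 0.021), with its call lost without 10-month-old mouse 3 (0.52, adjusted p for Itga11 of 0.10) or 8-month-old mouse 3 (0.66, adjusted p of 0.052). Of the list of 8 genes taken from the study, Sfrp2, Timp1, Cdkn1a and Egr3 did not pass (log2 fold changes of 0.54, 0.44, 0.33 and 0.75). Nrg1, which the study names outside that list, was called higher. Its log2 fold change was 0.78 to 1.04 over 20 alternative fits, of which 15 kept the call.

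Among 31 genes of TGF-β and BMP signalling, 9 rose and 1 fell, against 2.56% and 3.37% of all genes. Tgfb2, a ligand that activates fibroblasts, was at 214, 202, 160, 219 and 224 CPM in the 10-month-old mice, against 95.0, 97.2, 90.8, 105 and 107 CPM in the 8-month-old mice (1.04, SE 0.14, adjusted p = 3.8e-06). Fstl3, which traps activins, had 8.76 to 12.5 CPM in the 10-month-old mice and 3.33 to 4.40 CPM in the 8-month-old mice (1.31, SE 0.23, adjusted p = 0.00018). The ligand Bmp4 rose by 0.51 and kept its call without any 1 mouse. Other calls of the list were less firm. The ligand Bmp6 (0.41) lost its call without 10-month-old mouse 3, and Skil (0.62), a target gene and inhibitor, without 10-month-old mouse 4. Tgfb3 (0.51) lost it without 10-month-old mouse 2 or 5 or 8-month-old mouse 1, 2 or 3, Inhba (0.84) without 10-month-old mouse 1, 2 or 4 or 8-month-old mouse 2 or 4, and the receptor Tgfbr2 (0.29) without 10-month-old mouse 4 or 8-month-old mouse 2 or 3. Bmp7, known to oppose TGF-β, was the gene that fell (−0.92, SE 0.29, adjusted p = 0.043), and it lost its call on leaving out any 1 mouse other than 10-month-old mouse 3. Tgfb1 had a log2 fold change of 0.12 (adjusted p = 0.79).

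Secreted growth factors rose in 8 of 38 tested (against 2.56% of all genes), with none lower. These included Pdgfc (1.01), a mitogen of fibroblasts, Wisp2 (1.07) and Cyr61 (0.90), matricellular proteins, and Frzb (0.92), a Wnt inhibitor. Of the 38, 2 were called higher in FVB hearts, among them Frzb (0.99). The call of Cyr61 was lost without 10-month-old mouse 5 or 8-month-old mouse 2 or 3 (adjusted p for Cyr61 of 0.073 to 0.080). Outside that list, Edn3, endothelin 3, was at 15.9, 17.1, 19.8, 16.5 and 13.2 CPM in the 10-month-old mice, against 5.31, 4.37, 5.35, 5.74 and 5.63 CPM in the 8-month-old mice (1.64, SE 0.20, adjusted p = 9.3e-07). Gdf15, a stress cytokine that marks HF, was at 339, 329, 268, 325 and 474 CPM, against 169, 83.2, 114, 203 and 205 CPM at 8 months (1.16, SE 0.36, adjusted p = 0.044). Its groups did not overlap, but the call was lost with DESeq2 and without 7 of the 10 mice in turn (10-month-old mice 1, 2, 4 and 5 and 8-month-old mice 1, 2 and 3, with adjusted p for Gdf15 of 0.058 to 0.13). Egr2, an immediate early gene, rose (1.23, SE 0.32, adjusted p = 0.013), with its call resting on 10-month-old mouse 5 (0.92, adjusted p for Egr2 of 0.085 without it). It was the only one of 22 immediate early genes that passed.

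Cytl1, a small secreted protein that marks the endocardium, had the lowest p of all genes. It was at 83.1, 118, 77.7, 75.1 and 93.4 CPM in the 10-month-old mice, against 31.3, 30.2, 29.0, 32.6 and 27.9 CPM in the 8-month-old mice. The level was 2.96-fold higher, with the groups far apart (log2 fold change 1.56, SE 0.16, adjusted p = 1.0e-08). Npr3, the clearance receptor of natriuretic peptides, had 8.76 to 13.2 CPM in the 10-month-old mice and 5.50 to 6.48 CPM in the 8-month-old mice (1.02, SE 0.18, adjusted p = 0.0002). With Plvap (0.99) and Nfatc1 (0.40), 4 of 5 endocardial markers rose, against 2.56% of all genes. In FVB hearts Plvap (1.23) and Nfatc1 (0.67) rose as well and Cgnl1 fell (−0.33), and of these 5 markers only Cytl1 had a called difference between the strains. Of 13 general endothelial markers none passed in edgeR, with 5 at an unadjusted p under 0.05 and 1 lower in each of DESeq2 and limma-voom. Pecam1 had a log2 fold change of 0.05 (adjusted p = 0.81). The call of Nfatc1 was lost without 10-month-old mouse 3 or 8-month-old mouse 2 or 3 (adjusted p for Nfatc1 of up to 0.10).

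The promoter of Cytl1 is shown for the gene with the clearest increase (GRCm38.p6, chr5:37735269-37735568, plus strand, 5′ to 3′). None of the 3 motifs searched above was found in it, which says only that those letters are not in this window.
Cytl1: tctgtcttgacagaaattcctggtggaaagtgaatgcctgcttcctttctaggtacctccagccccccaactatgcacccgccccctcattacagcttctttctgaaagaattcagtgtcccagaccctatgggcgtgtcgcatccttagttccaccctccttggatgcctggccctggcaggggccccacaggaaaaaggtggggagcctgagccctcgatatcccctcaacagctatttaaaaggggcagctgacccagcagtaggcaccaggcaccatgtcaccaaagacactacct

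Among the remaining large increases, the synaptic vesicle genes Rims2 and Syt13 rose by 2.09 (SE 0.32) and 2.10 (SE 0.35), but at 1.07 to 2.61 CPM and 2.21 to 4.57 CPM in the 10-month-old mice their levels were low. Adgra1, an adhesion receptor, had 7.21 to 9.61 CPM in the 10-month-old mice and 1.95 to 2.79 CPM in the 8-month-old mice (1.92, SE 0.24, adjusted p = 9.3e-07). Dlx5 (1.65) and Pou3f1 (1.44), transcription factors of development, Vgll2 (1.33), a cofactor of TEAD factors, Cntfr (1.38), a cytokine receptor, and Syndig1 (1.47), Mgat5b (1.42) and Plcxd2 (1.44) completed the 15 named increases. The call of Plcxd2 was lost without 10-month-old mouse 1 or 5 or 8-month-old mouse 3 (adjusted p for Plcxd2 of 0.051, 0.057 and 0.078). Of 7 Schwann cell and neuron markers none passed in edgeR, with 2 at an unadjusted p under 0.05, 1 higher in DESeq2 and 0 in limma-voom, and the sum over that list was 29.7 to 37.0 CPM at 10 months and 27.4 to 30.3 CPM at 8 months.

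Calls in 3 lists of energy metabolism were all in the lower direction, although most of their members did not pass. Of 31 genes of fatty acid uptake and oxidation, 7 fell (against 3.37% of all genes), none rose, and 30 had a negative log2 fold change (median −0.27). Acaa2, the last thiolase step of mitochondrial β-oxidation, was at 146, 185, 248, 154 and 173 CPM in the 10-month-old mice, against 298, 317, 328, 249 and 273 CPM in the 8-month-old mice (−0.70, SE 0.12, adjusted p = 0.00013). Mouse 3 was the highest of the 10-month-old mice at 248 CPM, just under the lowest 8-month-old mouse at 249 CPM. Acadvl, the first dehydrogenase for long chains, had 76.7 to 88.5 CPM in the 10-month-old mice and 97.0 to 127 CPM in the 8-month-old mice (−0.52, SE 0.10, adjusted p = 0.0005), and Eci1 and Ech1, which handle unsaturated chains, fell by 0.62 and 0.55 on the log2 scale. Without 10-month-old mouse 3, 11 of the 31 fell.

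Ppara, the nuclear receptor that drives these genes, was at 5.36, 7.36, 7.05, 10.0 and 7.55 CPM in the 10-month-old mice, against 10.4, 21.4, 20.7, 12.1 and 14.9 CPM in the 8-month-old mice (−1.08, SE 0.26, adjusted p = 0.0061). It fell in FVB hearts too (−0.93, SE 0.25, adjusted p = 0.020), where Acaa2 had a log2 fold change of −0.11 (adjusted p = 0.72). The difference between the strains did not pass for Acaa2 (−0.58, adjusted p = 0.14) or for any other of the 31 genes. Of 73 nuclear genes of oxidative phosphorylation, 9 fell (against 3.37% of all genes), none rose and the median was −0.26. Among those that fell, Ndufv1 was at 221 to 272 CPM at 10 months and 314 to 404 CPM at 8 months (−0.43, SE 0.09, adjusted p = 0.0011). The citric acid cycle had 4 of 25 lower. Glycolysis and glucose uptake had calls in both directions, with 2 of 30 higher, among them Pgam1 (0.48), and 3 lower, among them Pfkfb1 (−0.95). Of all genes, 2.56% were higher and 3.37% lower, and the median of the glycolysis list was 0.01. Markers of ventricular cardiomyocytes had 13 of 14 log2 fold changes negative, 2 called lower (Myh6 and Tnni3) and a median of −0.23. Their part in the metabolic decreases was not tested. The calls of oxidative phosphorylation were fewer without the libraries that stood apart, with 6 of 73 lower without 8-month-old mouse 4 and 5 without 10-month-old mouse 3.

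The mitochondrially encoded genes gave no call. They held 17.9 ± 3.32% of the counts in the 10-month-old mice and 16.3 ± 1.61% in the 8-month-old mice (SD, n = 5 each). The difference of 1.62 percentage points did not pass a two-sided exact permutation test (p = 0.437, where 0.0079 is the smallest p that 5 against 5 allows), and without 10-month-old mouse 3 it was 0.187. None of the 10 genes tested passed in edgeR, DESeq2 or limma-voom, and 0 had an unadjusted p under 0.05 in edgeR.

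**Figure D3:**
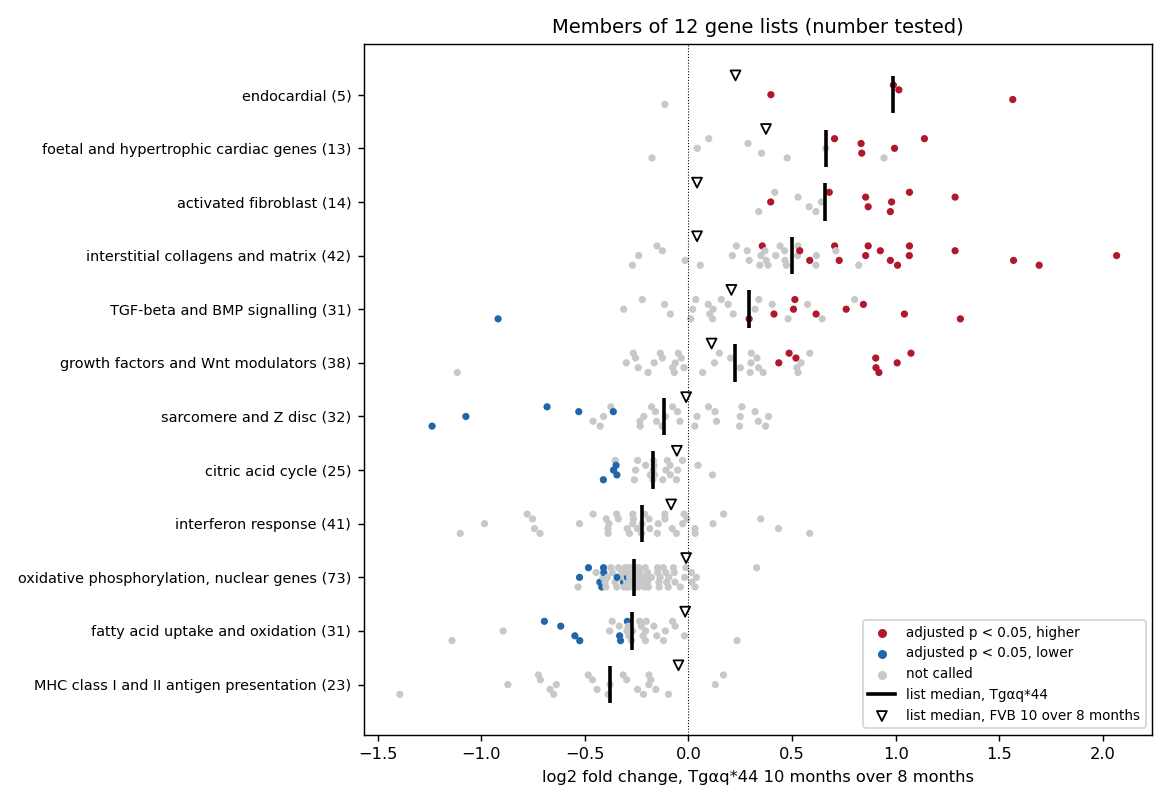
Log2 fold change of 10 over 8 months in Tgαq*44 hearts for the members of 12 gene lists, with called members in red (higher) or blue (lower), a bar at the list median and an open triangle at the median of the same list in FVB mice. Matrix, activated fibroblast, foetal and endocardial lists lie to the right of 0 with medians of 0.50 to 0.99, and fatty acid oxidation and oxidative phosphorylation lie to the left with medians of −0.27 and −0.26.

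Immune lists differed in their calls, which stand beside 2.56% of all genes higher and 3.37% lower. Of 28 cytokines and chemokines, 3 rose (Cx3cl1, Cxcl14 and Gdf15) and 4 fell (Cxcl12, Cxcl13, Ccl11 and Lgals3), of which 2 were lower without 8-month-old mouse 4. Of 27 genes of complement and coagulation, 3 rose and none fell. B cell markers had 2 of 4 lower and plasma cell markers 3 of 5, and none of these 5 genes was called without 8-month-old mouse 4. Of 23 antigen presentation genes and 41 interferon response genes none passed in edgeR, DESeq2 or limma-voom. At an unadjusted p under 0.05 in edgeR, which 20.6% of all genes reached, there were 1 and 6, and 21 of the 23 and 34 of the 41 had a negative log2 fold change (medians −0.38 and −0.23). Of 14 macrophage markers only Cd163 fell (−0.80, SE 0.21), a call lost without 10-month-old mouse 3 or 5 or 8-month-old mouse 5 (adjusted p for Cd163 of 0.055 to 0.10). Trem2, which marks lipid-handling macrophages, fell by 1.03 on the log2 scale (4.20 to 8.74 CPM at 10 months, against 9.61 to 17.5 CPM at 8 months). It belongs to a list of monocyte and inflammatory macrophage markers that did not move as 1. Of 8 tested, 1 was higher and 1 lower, and 4 log2 fold changes were positive and 4 negative. Their sum was 196 to 307 CPM at 10 months and 150 to 277 CPM at 8 months. Without 8-month-old mouse 4, 2 were higher and 1 lower. Among chemokines, Cxcl12 had 331 to 530 CPM in the 10-month-old mice and 607 to 707 CPM in the 8-month-old mice (−0.71, SE 0.16, adjusted p = 0.0045), and Cx3cl1, the ligand of the macrophage receptor Cx3cr1, rose (0.79, SE 0.14, adjusted p = 0.00021). Cx3cl1 was called higher in FVB hearts too (0.55), whereas Cxcl12 was not called there (−0.31). The calls of Cxcl13, Ighm, Igkc, Tnni2 and Tnnt3 rested on 8-month-old mouse 4. For Tnnt3, fast skeletal troponin T, that mouse had 47.8 CPM and the other 8-month-old mice 1.01 to 1.29 CPM, against 0.307 to 0.749 CPM in the 10-month-old mice, and the log2 fold change was −4.29 with it and −1.07 without it (adjusted p for Tnnt3 of 7.0e-05 and 0.11).

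FVB mice went through the same 2 months. In their hearts 717 genes (4.74%) passed, 385 higher (2.54%) and 332 lower (2.19%), and 76 were DEGs (0.502%), a count that was 43 without 10-month-old FVB mouse 5 and 48 without 8-month-old FVB mouse 2. The FVB comparison shares no mouse with the Tgαq*44 one. Of the 898 genes called in Tgαq*44 hearts, 726 (80.8%) had the same sign in FVB hearts, against 62.3% of all 15129. A total of 186 genes were called in the same direction in both strains, 20.7% of the Tgαq*44 calls and 25.9% of the FVB calls, and 3 were called in opposite directions. Across all genes the log2 fold changes of the strains correlated at r = 0.31 (Spearman 0.35), where genes are not independent and the libraries of an age may share a run.

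Genes that moved alike in both strains included some of the largest decreases. Hipk2, a kinase that activates p53, was at 32.9, 45.0, 45.5, 43.9 and 43.1 CPM in 10-month-old Tgαq*44 mice, against 78.2, 110, 95.9, 102 and 143 CPM in 8-month-old ones (−1.33, SE 0.22, adjusted p = 0.0001), and at 44.9 ± 7.04 CPM in 10-month-old FVB mice, against 118 ± 5.84 CPM in 8-month-old ones (−1.40, SE 0.22, adjusted p = 0.00013). Hif1an, which restrains the hypoxia factor HIF1, fell by 1.21 in each strain. Nt5c1a, the cytosolic enzyme that turns AMP into adenosine, fell by 2.52 in Tgαq*44 hearts and 2.45 in FVB hearts. Lrrc15 (−1.47), Carmn (−1.27), a noncoding RNA of smooth muscle, and Mrgprh (−1.17) fell in FVB hearts too (−1.05, −1.41 and −0.73).

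Increases shared by the strains included Sod3, the extracellular superoxide dismutase. It was at 123, 137, 164, 106 and 105 CPM in 10-month-old Tgαq*44 mice, against 62.7, 43.6, 41.7, 66.7 and 63.8 CPM in 8-month-old ones (1.19, SE 0.22), with 1.22 (SE 0.23) in FVB mice. Fstl3, Cntfr, Pou3f1, Plvap and Acta1 were also called in both. Nox4, an oxidase that makes hydrogen peroxide, rose in Tgαq*44 hearts (1.11, SE 0.23, adjusted p = 0.0015) and did not pass in FVB hearts (0.27, adjusted p = 0.74), but the difference between the strains did not pass either (adjusted p = 0.49). The 120 genes lower in both strains had a median exonic length of 8679.5 bases, against 3816.5 bases for the 66 genes higher in both and 4196 bases for all genes tested. The part of transcript length in these counts was not tested.

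A direct test of the difference between the strains called 19 genes (0.126%), 6 (0.0397%) with a more positive and 13 (0.0859%) with a more negative change in Tgαq*44 hearts. Cytl1 led them, with 28.5 ± 7.83 CPM in 10-month-old and 29.3 ± 2.78 CPM in 8-month-old FVB mice and a difference of 1.60 (SE 0.23, adjusted p = 9.5e-05). Gnb3, a G-protein β-subunit, was at 6.28, 3.68, 4.77, 3.52 and 5.98 CPM in 10-month-old Tgαq*44 mice, against 12.4, 9.46, 13.6, 10.2 and 11.3 CPM in 8-month-old ones (−1.24, SE 0.19), and at 27.2 ± 6.84 CPM in 10-month-old FVB mice, against 21.5 ± 4.25 CPM in 8-month-old ones, a difference of −1.59 (SE 0.25, adjusted p = 0.00067). The calls of Cytl1 and Gnb3 were kept in all 29 alternatives run for them. Clcn1 (difference −2.28, adjusted p = 0.016) kept its call in 28 of 29.

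Lipid genes were among the others. Dgat2, which makes triglycerides, fell in Tgαq*44 hearts (−0.60) and rose in FVB hearts (0.52), a difference of −1.12 (SE 0.20, adjusted p = 0.0069). Ces1d, a lipase of the endoplasmic reticulum, was at 5.06, 16.5, 10.8, 5.33 and 6.98 CPM in 10-month-old Tgαq*44 mice, against 30.2, 20.8, 24.9, 18.1 and 29.7 CPM in 8-month-old ones (−1.46, SE 0.22), and had a log2 fold change of −0.13 in FVB hearts (difference −1.34, adjusted p = 0.035, a call kept in 13 of 29 alternatives). Of matrix genes, Lum and Dcn rose in Tgαq*44 hearts (0.36 and 0.54), with differences of 0.82 and 0.68 (adjusted p of 0.0083 and 0.047), where the call of Lum was kept in 28 and that of Dcn in 11 of 29 alternatives. With only the 20 libraries of these ages in the fit, 4 of the 19 were called, namely Cytl1, Gnb3, Clcn1 and Slc7a1, an arginine transporter (−0.68 in Tgαq*44 and 0.23 in FVB hearts). The count was 6 to 12 without 10-month-old FVB mouse 1, 2, 3 or 5, 8-month-old FVB mouse 1, 2 or 4, 10-month-old Tgαq*44 mouse 1, 2 or 4 or 8-month-old Tgαq*44 mouse 3, and it was 51 without 10-month-old FVB mouse 4 and 64 without 10-month-old Tgαq*44 mouse 3.

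**Figure D4:**
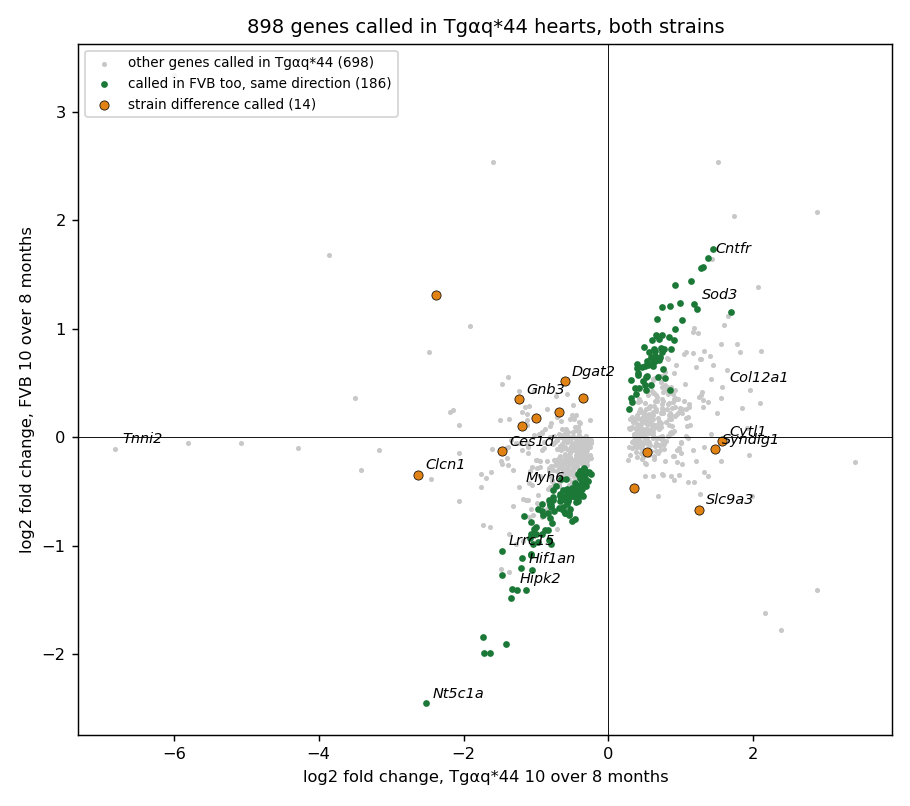
Log2 fold change of 10 over 8 months in Tgαq*44 hearts (x axis) and in FVB hearts (y axis) for the 898 genes called in Tgαq*44 hearts. The 186 genes called in the same direction in both strains (green) run along the diagonal from Nt5c1a to Cntfr, and the 14 genes of this set with a called strain difference (orange) lie off it.

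The other ages of the series place the step between 8 and 10 months, as a description with no test. Cytl1 averaged 23.2, 30.2, 89.4, 139 and 140 CPM in Tgαq*44 mice of 4, 8, 10, 12 and 14 months, and 24.3 to 35.9 CPM in FVB mice of these ages. Myh6 was at 11271, 9515, 4036, 5766 and 6091 CPM, so that the 10-month-old group was the lowest of the 5 Tgαq*44 groups. In FVB mice Myh6 averaged 15134, 16409, 11926, 13216 and 10169 CPM. There too it was lower at 10 months than at 8 or 12 months, and it was lowest at 14 months. Hipk2 followed a course without a trend, with 196, 106, 42.1, 189 and 104 CPM in Tgαq*44 mice and 247, 118, 44.9, 177 and 32.1 CPM in FVB mice. At 12 months both strains were back above their 8-month level, so that the decrease between 8 and 10 months in this gene was not kept. Cds2 and Hif1an, also lower in both strains, had similar courses. Cds2 averaged 259, 257, 150, 289 and 264 CPM in Tgαq*44 mice and 261, 259, 149, 257 and 145 CPM in FVB mice. Lrrc15 had such a course in FVB mice too, with 48.5, 44.8, 21.7, 44.1 and 18.1 CPM. It differed in Tgαq*44 mice, with 20.6, 7.40 and 13.0 CPM at 8, 10 and 12 months. Sod3, higher in both strains, averaged 55.7, 127, 83.7 and 61.4 CPM in Tgαq*44 mice of 8, 10, 12 and 14 months. In FVB mice of these ages Sod3 averaged 30.6, 71.7, 46.1 and 70.4 CPM. Whether the shared calls follow age or another difference between the groups was not tested.

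**Figure D5:**
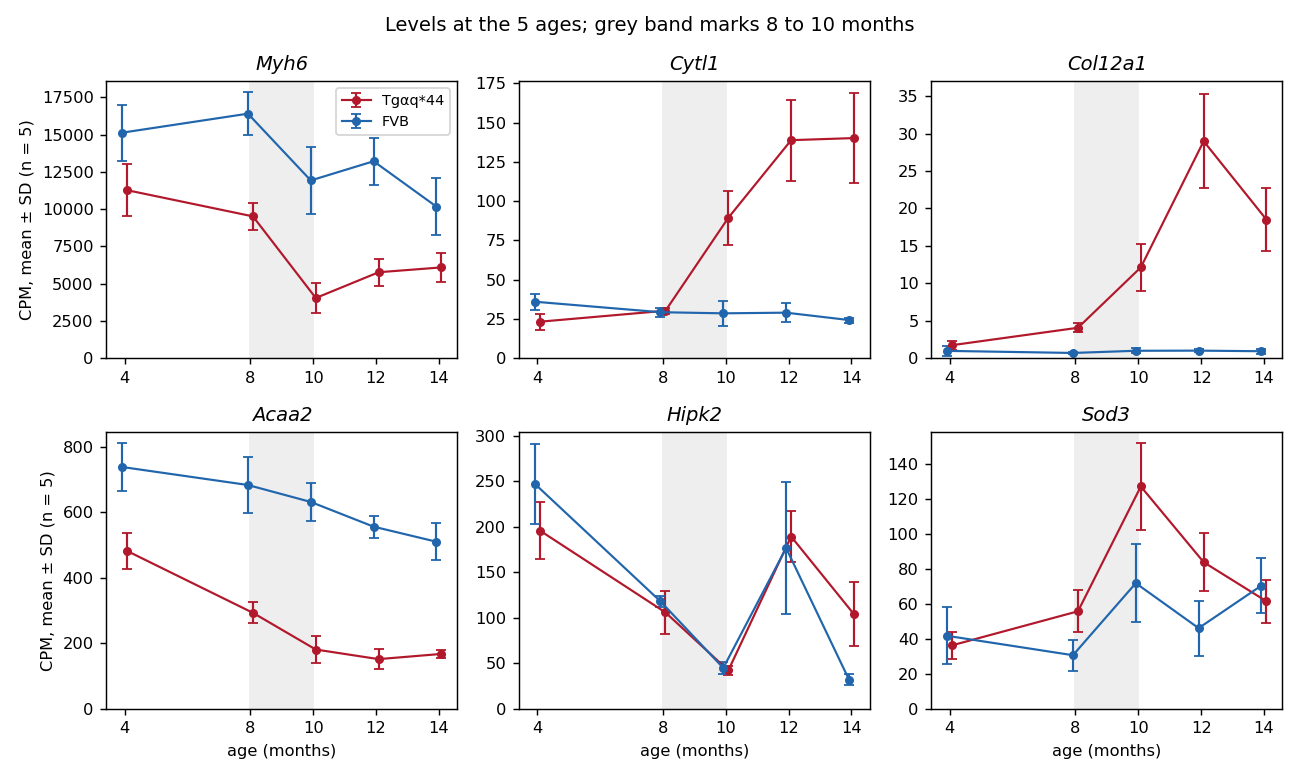
Mean CPM with SD (n = 5) at 4, 8, 10, 12 and 14 months for 6 genes in Tgαq*44 (red) and FVB (blue) mice, with the 8 to 10 month step shaded. Cytl1 leaves the FVB line after 8 months, Col12a1 has the higher mean in Tgαq*44 mice at all 5 ages, Myh6 and Acaa2 lie below it at all 5 ages, and Hipk2 and Sod3 move in parallel in the strains between 8 and 10 months.

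The remaining named decreases were of low level. E2f2, a cell cycle transcription factor, fell by 1.75 on the log2 scale (0.273 to 0.908 CPM at 10 months, against 1.36 to 2.67 CPM at 8 months), Hils1, a spermatid histone gene, by 1.64 (0.570 to 0.749 CPM, against 1.17 to 2.57 CPM) and Hcst, a signalling adaptor of lymphocytes, by 1.27 (0.341 to 0.926 CPM, against 1.50 to 2.15 CPM). None of 33 cell cycle genes passed in edgeR, DESeq2 or limma-voom, with 2 at an unadjusted p under 0.05 in edgeR.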

How the data were processed

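RNA was sequenced from the apex of the left ventricle of 5 female mice per group with a kit that selects polyadenylated RNA. Per the labels and the study's methods, the authors trimmed reads with Cutadapt, aligned them with STAR to GRCm38 and deposited whole-number counts of reads over exons per gene from HTSeq. The strand setting is not given in the sources used here. Tables of the authors' own fold changes, p-values and enriched processes were not used.

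The deposited counts were fitted with edgeR 4.0.16 (R 4.3.3) as 1 model of the 10 groups of strain and age, with TMM factors and the quasi-likelihood test. P-values were adjusted by Benjamini-Hochberg over the 15129 genes that exceeded 0.5 CPM in at least 1 group, in more than 3 of its mice. A DEG changed by more than 1 on the log2 scale at an adjusted p under 0.05, and list members were counted at an adjusted p under 0.05 alone. The difference between strains was a contrast of the same model. SE was derived from the fold change and the F statistic. The scripts were tested on simulated counts. Other libraries of the series entered the fit through the spread, the filter on low counts and the TMM factors.

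Genes were named by rule: Gnaq, the 15 largest changes per direction among DEGs with a mean over 1 CPM and no overlap between ages, genes that the study names, the leading and defining members of each list, and the leading strain differences. Rik, Gm and clone names were left out, and some further genes, such as Trem2 and Nox4, were picked with their values in view. The members and the 58 lists were chosen with earlier results of these data known. Nothing states that mice of a group came from separate litters, so that p-values rest on the spread between the mice within the 10 groups. Alternatives were DESeq2 1.42.0, limma-voom (limma 3.58.1), other factors, filters and sets of samples, a block for mouse number and leaving out each mouse. Fits without both libraries that stood apart or without mitochondrially encoded genes were added after seeing the data. At 8772914 to 21601942 counts per library, genes under about 1 CPM rest on few reads.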

Additional observations from a re-analysis of the deposited data

Results flagged for a closer look

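In 8-month-old Tgαq*44 mouse 4, several genes lay far from the other mice of its group. Tnni2 and Tnnt3, fast skeletal muscle troponins, were at 54.97 and 47.8 CPM, against 0.143 to 0.722 CPM and 1.01 to 1.29 CPM in the other 8-month-old mice. Ighm and Igkc, immunoglobulin chains, were at 253 and 246 CPM, against 10.4 to 21.1 CPM and 2.79 to 5.31 CPM. Krt19, a keratin of mesothelium, was at 6.25 CPM, against 0.358 to 1.44 CPM, and Hcst at 2.15 CPM, against 1.50 to 1.61 CPM.

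Single mice also stood apart for Syt13 (4.57 CPM in 10-month-old mouse 2, against 2.21 to 2.84 CPM in the other 10-month-old mice), Hipk2 (32.9 CPM in 10-month-old mouse 1, against 43.1 to 45.5 CPM) and Lum (747 CPM in 10-month-old mouse 1, against 534 to 584 CPM). The mitochondrially encoded share was 23.6% in 10-month-old mouse 3, against 15.1 to 17.3% in the other 10-month-old mice, and 19.0% in 8-month-old mouse 1, against 15.2 to 16.2% in the other 8-month-old mice. Of 102 groups of 5 values tested for such a value, 11 had one. The cutoff lets about 1 in 20 groups through by chance, but genes tested were named from these data and share the same mice. The count therefore cannot be compared with that rate.

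The change between 8 and 10 months differed between Tgαq*44 and FVB hearts in edgeR's contrast for Cytl1 (1.60), Gnb3 (−1.59), Dgat2 (−1.12), Lum (0.82), Clcn1 (−2.28), Usp2 (−0.88), Slc9a3 (1.92), Slc7a1 (−0.90), Syndig1 (1.58), Acacb (−0.71), Ces1d (−1.34), Sbk3 (−1.74), Zfp286 (1.75), Scgb1c1 (−1.34), Dcn (0.68), Muc16 (−3.69) and Cry2 (−0.75), each given as the log2 fold change in Tgαq*44 minus that in FVB hearts. Cytl1, Slc9a3, Syndig1, Zfp286, Lum and Dcn changed more positively in Tgαq*44 hearts and the other 11 more negatively.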

How the results depend on the processing

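The DEGs between 10-month-old and 8-month-old Tgαq*44 hearts numbered 149 to 184 on leaving out each mouse and 244 (86 higher, 158 lower) with no filter on low counts, where 183 were found. Genes at an adjusted p under 0.05 were 898, 578 to 809 on leaving out each mouse and 1421 (720 higher, 701 lower) with only the 10 Tgαq*44 libraries in the fit. FVB DEGs were 76, and 43 to 102 on leaving out each mouse. Strain differences were 19, but 60 with DESeq2, 55 with no filter on low counts, 4 with only the 20 libraries of 8 and 10 months, 55 without 8-month-old mouse 4 and 10-month-old mouse 3 together, and 6 to 64 on leaving out each mouse; the cause was not tested. The mitochondrially encoded share differed by 0.187 to 2.33 percentage points on leaving out each mouse.

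Without 8-month-old mouse 4, the sign turned for immunoglobulin genes and Mylpf, so that the range on leaving out each mouse was −2.31 to 0.084 for Ighm, −3.78 to 0.30 for Igkc, −2.74 to 0.42 for Jchain, −5.73 to 2.11 for Ighg2b, −2.40 to 0.14 for Igha and −3.69 to 0.75 for Mylpf. Without 10-month-old mouse 3 as well, the value was 0.066 for Ighm, 0.17 for Igkc, 0.24 for Jchain, 1.44 for Ighg2b and 0.69 for Mylpf. The share of higher genes among the DEGs was 45.9%, and 60.1% without mouse 4, 56.3% without both mice and 35.2% with no filter.

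Nothing states that mouse numbers pair the samples. Correlations of same-numbered Tgαq*44 mice ran from −0.158 to 0.168 and those of FVB mice from −0.250 to 0.351. These few correlations cannot decide whether the numbers pair the samples. With the number as a replicate block there were 169 DEGs and 1176 genes at an adjusted p under 0.05 in Tgαq*44 hearts, 83 FVB DEGs and 14 strain differences, and the mitochondrial share differed by 1.62 points (p = 0.563 by exact sign flips). Genes under 1 CPM were limited by depth.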

Other observations

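All 5 erythroid genes tested had a negative log2 fold change (median −1.06), 4 of them at an unadjusted p under 0.05 and none at an adjusted one in edgeR, DESeq2 or limma-voom. The 6 genes of the list summed to 240.6 to 812 CPM in 10-month-old Tgαq*44 mice and 483 to 1344 CPM in 8-month-old Tgαq*44 mice. Markers of smooth muscle summed to 5038 to 6005 CPM at 10 months and 4030 to 4723 CPM at 8 months. Of 7 tested, 2 rose, Lmod1 (0.84) and Mylk (0.44), against 2.56% of all genes. The call of Lmod1 was lost without 10-month-old mouse 3 or 8-month-old mouse 4 (adjusted p for Lmod1 of 0.060 in each), and that of Mylk was kept in all 20 alternatives. Of 29 genes of adrenergic and natriuretic peptide signalling, 3 rose (Npr3, Pde5a at 0.63 and Grk5 at 0.35) and 2 fell (Adcy6 and Adcy9), against 2.56% and 3.37% of all genes. The list median was 0.06. Without 8-month-old mouse 4 only Npr3 rose and 2 fell. Pde5a also lost its call without 10-month-old mouse 3 or 8-month-old mouse 5 (adjusted p for Pde5a of 0.058 and 0.053), and Grk5 kept its call in 12 of 20 alternatives.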
